A study of Homo sapiens with 16 samples.

Results

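AsPC-1 cells, an established human pancreatic adenocarcinoma line, were transfected with CTNNB1 siRNA or with a control siRNA, and their RNA was read on Affymetrix arrays at 48 h. CTNNB1 encodes β-catenin. Of the 16 arrays in the series, 4 belonged to this experiment, 2 with CTNNB1 siRNA and 2 with control siRNA, and they were chosen by their titles. Both siRNAs were used at 20 nM with the same lipid reagent, so the control cells carried a transfection too. In a separate experiment the same line was treated for 6 h or 24 h with DMSO as vehicle or with ICG-001 at 10 µM, in 4 groups of 3 arrays. ICG-001 is a small molecule described as a blocker of the contact between β-catenin and its coactivator CBP. Replicates are labelled as biological without mention of separate cultures, so the spread between arrays may in part be technical. The labels give neither the sequence of the CTNNB1 siRNA nor whether it was a pool.

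β-Catenin has a place at the cell surface and another in the nucleus. At adherens junctions it ties the tails of cadherins to α-catenin and the actin cytoskeleton. When Wnt ligands engage Frizzled receptors, β-catenin escapes the destruction complex built on APC and AXIN, enters the nucleus and joins TCF/LEF factors, which recognise a DNA core spelled CTTTGA and its variants. Known targets in gastrointestinal epithelium include the protease MMP7, the receptor LGR5 and RNF43, a membrane ubiquitin ligase that removes Frizzled from the surface.

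RefSeq promoters were searched for that core because a loss of β-catenin could be read against it. A window of 250 bases before the annotated start, on build GRCh38.p14, is printed for MMP7 and RNF43, the classical target genes with large falls, and for GPX2 and ABCA1, a gene with a large fall and a gene with a large rise. The windows are at chr11:102530748-102530997 for MMP7, chr17:58417535-58417784 for RNF43, chr14:64942746-64942995 for GPX2 and chr9:104928156-104928405 for ABCA1, all on the minus strand and read 5′ to 3′. Capitals mark CTTTGA on either strand, which reads TCAAAG on the other, and the AP-1 motif TGANTCA. The motifs did not overlap each other in these windows.
MMP7: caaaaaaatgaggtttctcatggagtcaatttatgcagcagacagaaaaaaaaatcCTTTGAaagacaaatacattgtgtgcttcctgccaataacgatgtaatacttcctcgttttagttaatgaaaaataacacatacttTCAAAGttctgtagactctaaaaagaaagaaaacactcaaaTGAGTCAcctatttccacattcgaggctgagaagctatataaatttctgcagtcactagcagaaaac
RNF43: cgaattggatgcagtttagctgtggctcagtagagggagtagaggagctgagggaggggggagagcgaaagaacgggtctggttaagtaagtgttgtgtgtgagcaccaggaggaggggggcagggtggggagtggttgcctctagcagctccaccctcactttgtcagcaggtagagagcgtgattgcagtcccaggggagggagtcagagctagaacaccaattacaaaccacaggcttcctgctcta
GPX2: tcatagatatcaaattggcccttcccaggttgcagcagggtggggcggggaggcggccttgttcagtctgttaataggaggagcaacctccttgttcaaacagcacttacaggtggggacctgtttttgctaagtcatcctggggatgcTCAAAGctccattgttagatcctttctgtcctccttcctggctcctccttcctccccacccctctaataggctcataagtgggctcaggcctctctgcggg
ABCA1: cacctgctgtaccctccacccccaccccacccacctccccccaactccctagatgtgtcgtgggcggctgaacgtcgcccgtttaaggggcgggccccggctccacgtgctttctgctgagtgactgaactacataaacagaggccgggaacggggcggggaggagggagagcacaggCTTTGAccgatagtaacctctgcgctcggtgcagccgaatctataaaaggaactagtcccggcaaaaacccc

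The MMP7 window held the core at 194 and 108 bases before the start and an AP-1 match at 67. GPX2 held the core at 101 bases and ABCA1 at 72, and RNF43 held neither motif. The core occurred in 3102 of 27305 RefSeq promoters (11.4%) and in 420 of 4057 promoters of measured genes (10.4%). It occurred in 18 of 207 promoters of genes that rose after knockdown (8.7%) and in 17 of 172 of genes that fell (9.88%). The AP-1 motif was in 6.6% of all promoters, 5.31% of those that rose and 6.4% of those that fell. Neither share in the fallen genes lay far from that of all promoters, and a match in so short a window is a description and no binding site.

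The deposited table held 9554 probe sets, none with a coefficient of variation over the 16 arrays under 0.4, so genes that varied little are outside every count. A single gene symbol was annotated for 6442 probe sets, which gave 5250 genes, each read by its brightest probe set. CTNNB1 itself had 0 probe sets in the table, and so had AXIN2, MYC, CCND1, EP300 and JUP, the gene for γ-catenin. The knockdown therefore could not be checked on its target. Median intensity was 12.70 to 13.05 on the 4 siRNA arrays, a range of 0.017 on the log2 scale. Between the control arrays the difference of log2 values had an SD over genes of 0.34, and between the CTNNB1 siRNA arrays 0.331. The control arrays were not equally far from the knockdown: in 367 of the 477 genes past the test, control replicate 1 lay nearer the CTNNB1 siRNA arrays than control replicate 2 did. What part this has in the results was not tested beyond leaving out each array.

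Changes are differences of log2(intensity + 16), CTNNB1 siRNA minus control siRNA, with the SE after the ± sign, from a limma fit over all 16 arrays. A gene was said to rise or fall at a Benjamini-Hochberg adjusted p under 0.05. By this rule 477 of 5250 genes changed (9.09%), of which 264 rose (5.03%) and 213 fell (4.06%). Changes were mostly modest, with a median of 0.59 among rises and -0.60 among falls, against 0.02 over all genes. A change of at least 2-fold was seen in 74 genes, 38 up and 36 down, and of at least 4-fold in 1 gene that rose and 6 that fell. In all 477 genes the arrays of the groups did not overlap, which was also true of 44.2% of all genes. Calls were far denser among brighter genes. They made up 444 of 1871 genes with a mean intensity of at least 32 in either group (23.7%) and 33 of 3379 dimmer genes (0.977%).

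**Figure D1:**
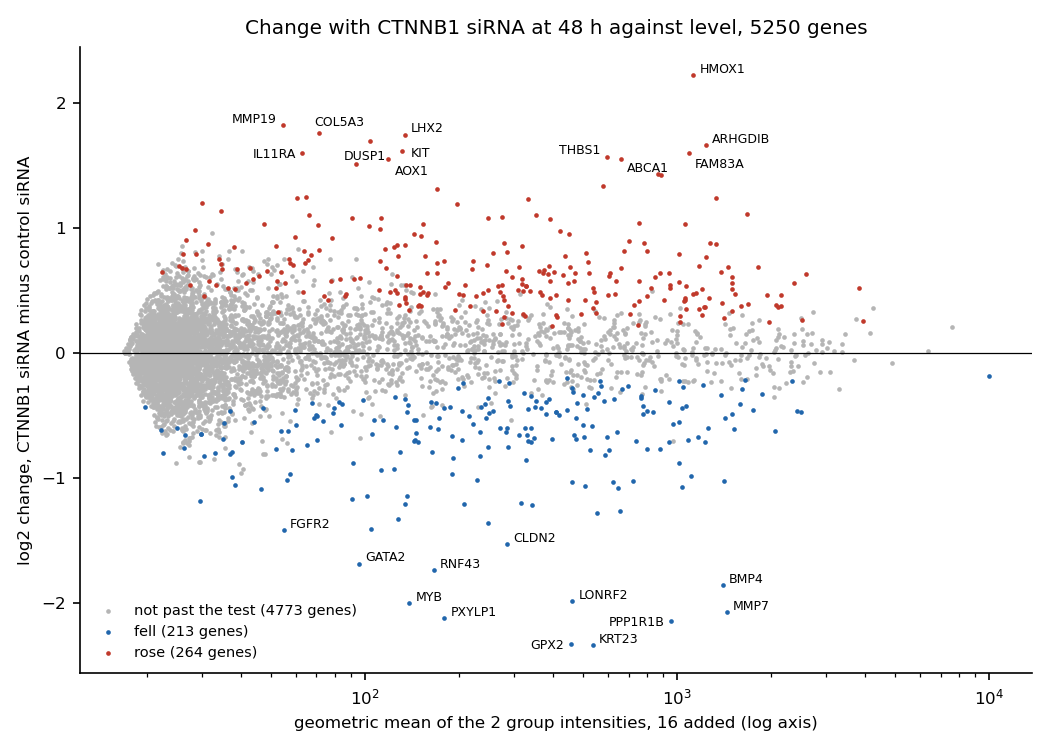
Log2 change with CTNNB1 siRNA (vertical axis) against the geometric mean of the group intensities after adding 16 (log axis) for 5250 genes, with the 264 that rose in red, the 213 that fell in blue and the rest in grey. The 12 largest falls and 12 largest rises are named; HMOX1 stands above all other rises at 2.22, and dim genes on the left were rarely past the test.

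Leaving out control replicate 2 reduced the calls to 354, of which 304 were among the 477, and leaving out control replicate 1 gave 528, of which 406 were. Without CTNNB1 siRNA replicate 1 the calls were 383, and without replicate 2 they were 361. Across these 4 fits 259 genes stayed past the test each time, 140 that rose and 119 that fell. An exact permutation test of 2 arrays against 2 cannot give a two-sided p below 0.333, so each call rests on the spread that limma pools over groups and genes.

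KRT23 and GPX2 had the largest falls. KRT23, a type I keratin, read 1114 and 1275 on the control arrays and 221 and 226 with CTNNB1 siRNA. Its change was -2.34 ± 0.09 (adjusted p 2.06e-12), and the arrays within each group lay close together. GPX2, the glutathione peroxidase of the gut epithelium, read 695 and 1359.6 in control and 146 and 223 after knockdown, a change of -2.33 ± 0.20 (adjusted p 1.5e-07). The control arrays of GPX2 were far apart, but the lower of them was still above both knockdown arrays. PPP1R1B, an inhibitor of protein phosphatase PP1 also known as DARPP-32, went from 1576 and 2443 to 386 and 482, a change of -2.15 ± 0.14 (adjusted p 4.06e-09).

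MMP7, the secreted protease matrilysin and a textbook Wnt target, read 2275 and 3669.7 in control and 589 and 773 after knockdown. Its change was -2.07 ± 0.14 (adjusted p 6.27e-09), with control replicate 1 again nearer the knockdown arrays. MYB, a transcription factor of progenitor cells, read 176 and 363 in control and 44.0 and 59.3 after knockdown, a change of -2.00 ± 0.21 (adjusted p 1.58e-06). A dim second probe set of MYB changed by -0.11 and did not pass, and with its probe sets averaged MYB changed by -1.06. BMP4, a secreted ligand of the TGF-β superfamily, read 2300.2 and 3008 in control and 646 and 793 after knockdown. Its change was -1.86 ± 0.10 (adjusted p 1.35e-10). The other large falls were in PXYLP1, a xylose phosphatase of proteoglycan synthesis (-2.12 ± 0.12), LONRF2 (-1.98 ± 0.14), RNF43 (-1.74 ± 0.11), the transcription factor GATA2 (-1.69 ± 0.17), the pore-forming claudin CLDN2 (-1.53 ± 0.25) and the growth factor receptor FGFR2 (-1.42 ± 0.28). With 64 in place of 16 added before log2, GATA2 fell by 1.12 and FGFR2 by 0.75, since both were dim after knockdown, at means of 37.1 and 17.8. A dimmer FGFR2 probe set changed by -0.59 and did not pass.

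The largest rise was in HMOX1, the inducible heme oxygenase, which degrades heme to iron, carbon monoxide and biliverdin. It read 546 and 467 on the control arrays and 2321 and 2506 with CTNNB1 siRNA, a change of 2.22 ± 0.08 (adjusted p 1.3e-12). Its arrays were close within each group and far apart between them. ARHGDIB read 852 and 526 in control and 2227 and 2099.8 after knockdown, a change of 1.67 ± 0.15 (adjusted p 1.52e-07). A further probe set of ARHGDIB changed by 0.76 and a dim one by 0.15, and their average with it was 0.86. THBS1, the matrix glycoprotein thrombospondin 1, read 355 and 305 in control and 1016 and 1005 after knockdown, a change of 1.57 ± 0.07 (adjusted p 1.59e-11). Averaged with its dimmer probe sets, THBS1 changed by 0.82. ABCA1, the exporter of cholesterol to apolipoprotein A-I, read 427 and 316 in control and 1086 and 1131 after knockdown. Its change was 1.55 ± 0.16 (adjusted p 9e-07), and its other probe set changed by 1.67.

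KIT, a receptor tyrosine kinase, read 63.4 and 54.9 in control and 229.8 and 199 after knockdown, a change of 1.61 ± 0.19 (adjusted p 4.71e-06). FAM83A read 805 and 444 in control and 1875 and 1819.5 after knockdown, a change of 1.60 ± 0.16. AOX1, an aldehyde oxidase, read 64.5 and 43.1 in control and 198 and 175 after knockdown, a change of 1.56 ± 0.15. Several further large rises began from a dim control level, so that their size depends on the number added before log2. MMP19, a matrix metalloproteinase, read 15.9 and 10.04 in control and 102 and 72.5 after knockdown, a change of 1.83 ± 0.14 that became 0.97 with 64 added. COL5A3, a chain of type V collagen, changed by 1.76 ± 0.19 (1.04 with 64 added), and IL11RA, the receptor chain for interleukin 11, by 1.60 ± 0.29 (0.86).

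In all 24 of the largest rises and falls control replicate 2 lay further from the knockdown arrays than control replicate 1 did, which enlarged each change. Among the rises, 3 shrank most when control replicate 2 was left out. Without it the change of LHX2, a LIM-homeobox factor, went from 1.75 ± 0.24 to 1.12, and that of IL11RA to 1.04. DUSP1, a phosphatase that switches off MAP kinases, read 74.0 and 15.9 in control and 126 and 196 after knockdown, a change of 1.70 ± 0.38 (adjusted p 0.00515). Its call ended without control replicate 2 (0.95, adjusted p 0.173) and without CTNNB1 siRNA replicate 2 (1.41, adjusted p 0.0922). The other DUSP1 probe set changed by 0.07.

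**Figure D2:**
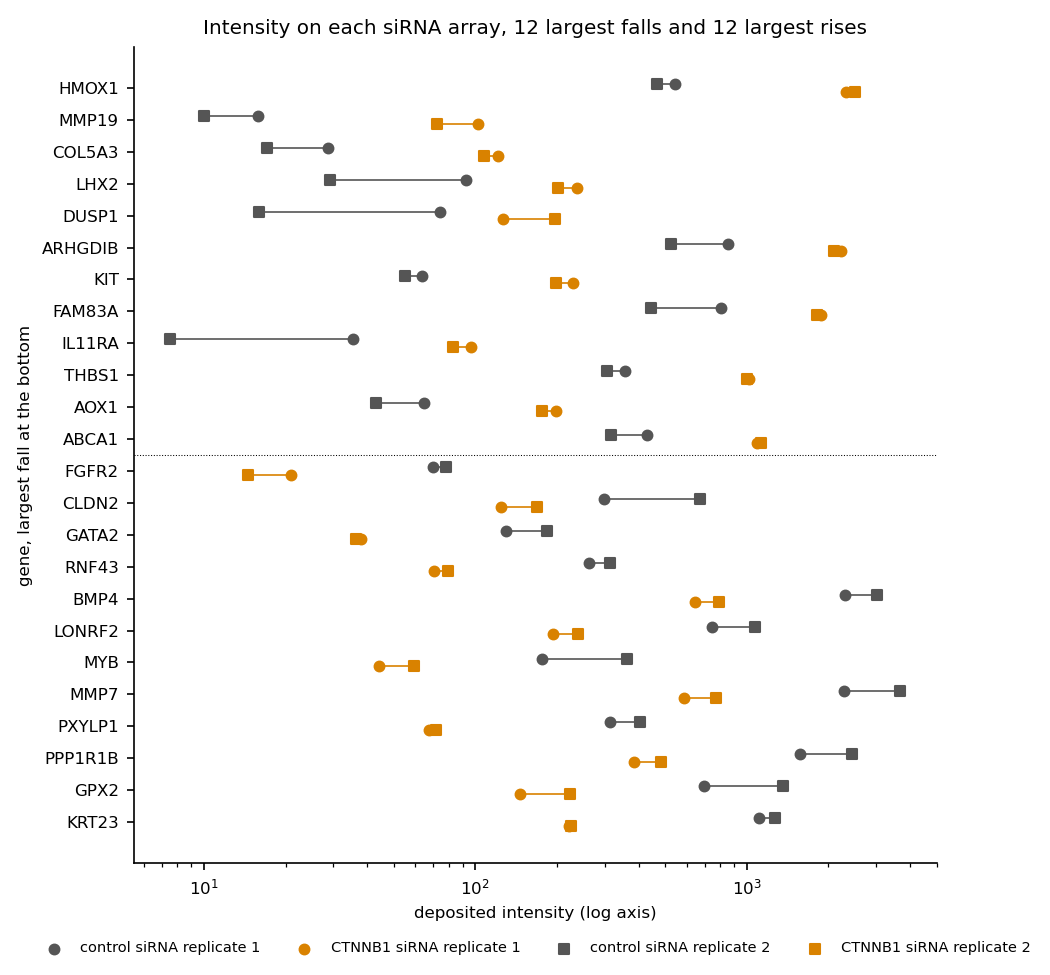
Deposited intensity (log axis) of the 12 largest rises (top) and 12 largest falls (bottom) on each of the 4 siRNA arrays, grey for control and orange for CTNNB1 siRNA, circles for replicate 1 and squares for replicate 2. The groups do not overlap in any of the 24 genes, as the rule that named them required, and in all 24 the grey circle lies nearer the orange points than the grey square does.

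Wnt targets moved in both directions. Of 65 genes on a list of known targets 23 were measured, of which 6 fell and 4 rose, with a median change of -0.12. This count and the list counts below stand beside calls in 9.09% of all genes and in 23.7% of genes at an intensity of at least 32. A count near these shares says nothing particular about its list. MMP7 and BMP4 led the falls. RNF43, whose promoter is printed above, read 262 and 314 in control and 70.4 and 79.6 after knockdown, a change of -1.74 ± 0.11 (adjusted p 3.72e-09). LGR5, the R-spondin receptor that marks intestinal stem cells, read 119.6 and 193 in control and 45.5 and 49.1 after knockdown, a change of -1.41 ± 0.15 (adjusted p 1.55e-06). Its dim second probe set fell too, by 0.59 (adjusted p 0.0369). TNFRSF19, also called TROY, read 53.3 and 75.1 in control and 19.8 and 27.1 after knockdown, a change of -1.02 ± 0.19 that was -0.55 with 64 added.

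SOX4, an HMG-box transcription factor, read 388 and 487 in control and 304 and 306 after knockdown, a change of -0.49 ± 0.11 (adjusted p 0.00437). Its call ended without control replicate 2 (-0.33, adjusted p 0.106), and its other probe set changed by -0.23 and did not pass. The list members that rose were TCIM, CD44, MSX1 and CEMIP. TCIM, described as a positive regulator of Wnt signalling, read 471 and 242 in control and 929 and 836 after knockdown, a change of 1.34 ± 0.18 (adjusted p 2.55e-05) that was 0.88 without control replicate 2. CD44, the hyaluronan receptor, read 779.7 and 606 in control and 1058 and 1106 after knockdown, a change of 0.64 ± 0.09 (adjusted p 5.02e-05). Its other probe sets changed by 0.60, 0.28 and 0.29, and of these only the first passed. The homeobox gene MSX1 changed by 0.46 ± 0.13 and CEMIP, a hyaluronan-binding protein, by 0.37 ± 0.10, and neither stayed past the test when all arrays were quantile-normalized together. There 7 of the 23 fell and 2 rose. MSX1 was also lost without any of the 4 siRNA arrays (adjusted p 0.0617 to 0.1295), and CEMIP without control replicate 1 (0.0539) or CTNNB1 siRNA replicate 1 (0.122).

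BIRC5, the gene for survivin and a proposed target of β-catenin with CBP, read 585 and 579 in control and 532 and 507 after knockdown. Its arrays did not overlap, but its change of -0.16 ± 0.07 did not pass (adjusted p 0.181). MET, the hepatocyte growth factor receptor, changed by -0.04 ± 0.17, and 8 of the 13 targets that did not pass were below an intensity of 32 in both groups.

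Of 94 listed components of the Wnt pathway 22 were measured, and 3 passed the test. WNT7B, a ligand, read 834 and 678 in control and 1336 and 1288 after knockdown, a change of 0.79 ± 0.14 (adjusted p 0.000394). BCL9L, which links β-catenin to PYGO proteins, went from 1725 and 1555 to 2286 and 2238, a change of 0.46 ± 0.12 (adjusted p 0.0192). TCF7L2, the main TCF factor of gut epithelium, went from 1197 and 1186 to 896 and 856, a change of -0.44 ± 0.12 (adjusted p 0.0184). The TCF7L2 arrays were tight within each group. With the 4 siRNA arrays fitted alone, TCF7L2 and BCL9L both stayed past the test. In the fit over all groups, the TCF7L2 call ended when any siRNA array was left out (changes of -0.41 to -0.47). That of BCL9L ended without control replicate 2 (0.39), CTNNB1 siRNA replicate 1 (0.45) or CTNNB1 siRNA replicate 2 (0.48). CREBBP, the gene for CBP, was dim, at 12.6 and 13.9 in control and 4.74 and 3.34 after knockdown, and its change of -0.55 ± 0.22 did not pass (adjusted p 0.154). It passed after quantile normalization over all arrays (-0.77, adjusted p 0.0186).

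**Figure D3:**
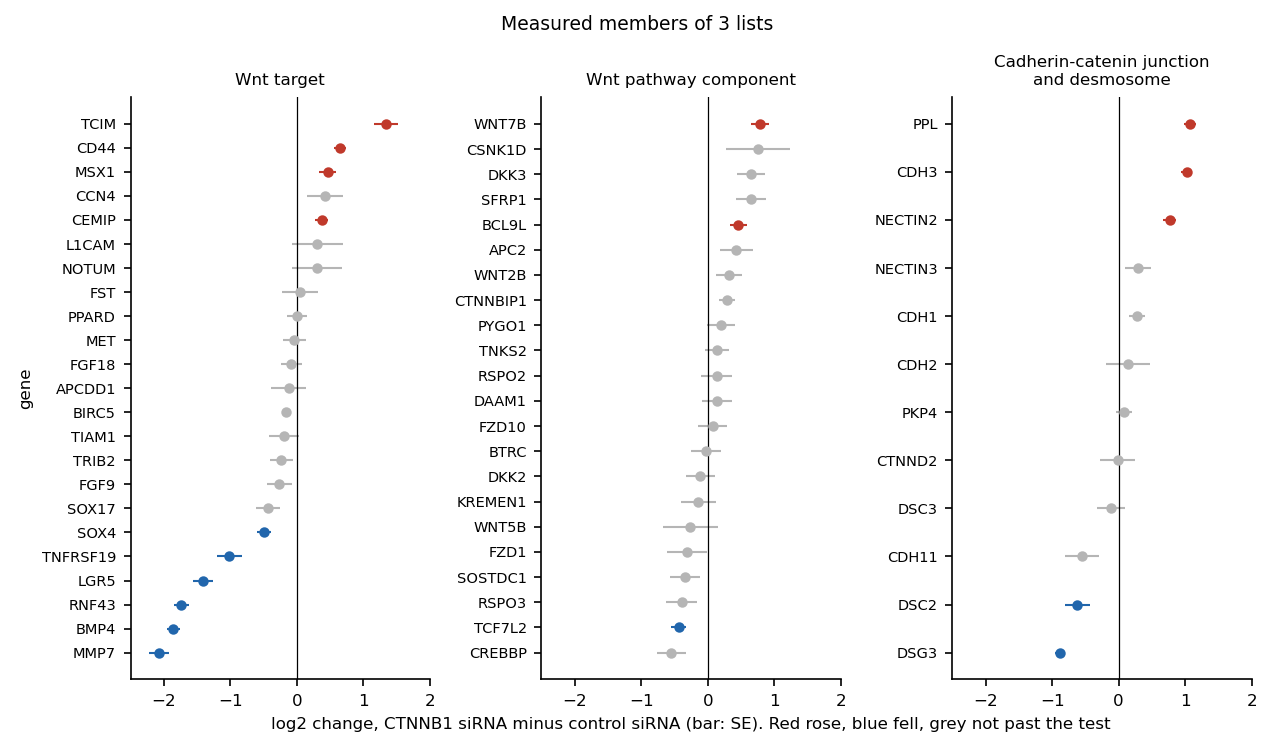
Log2 change with CTNNB1 siRNA (horizontal axis, bar: SE) for each measured member of the lists of Wnt targets, Wnt pathway components and cadherin-catenin junction and desmosome genes, with rises in red, falls in blue and members not past the test in grey. MMP7 at -2.07 and TCIM at 1.34 are the ends of the target list, and most pathway components are grey.

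β-Catenin also serves cell adhesion, and here too the listed genes split. Of 37 genes of cadherin junctions and desmosomes 12 were measured, of which 3 rose and 2 fell. CDH3, the gene for P-cadherin, read 33.8 on both control arrays and 89.2 and 81.3 after knockdown, a change of 1.02 ± 0.08 (adjusted p 3.35e-08) that was 0.61 with 64 added. PPL, the desmosomal linker periplakin, read 289.97 and 222 in control and 547 and 555 after knockdown, a change of 1.07 ± 0.09 (adjusted p 7.6e-08). NECTIN2, an adhesion molecule of adherens junctions, went from 966 and 896 to 1605 and 1593, a change of 0.77 ± 0.10, and its 2 other probe sets rose as well. The falls were in desmosomal cadherins. DSG3, desmoglein 3, read 1263 and 1456 in control and 737 and 723 after knockdown, a change of -0.88 ± 0.07 (adjusted p 8.87e-08). DSC2, desmocollin 2, read 2509.5 and 2558 in control and 1664 and 1617 after knockdown, a change of -0.62 ± 0.19. It was close to the threshold (adjusted p 0.0471) and did not pass it when any of the 4 siRNA arrays was left out (changes of -0.60 to -0.64). With the 4 siRNA arrays fitted alone DSC2 stayed past the test. On the DMSO arrays at 6 h DSC2 read 1391, 1187 and 776, a spread that enters the fit over all arrays. The dimmer probe set of DSC2 fell by 0.78 (adjusted p 4.91e-05). CDH1, the gene for E-cadherin, was dim on these arrays, at 12.4 and 8.68 in control and 15.2 and 16.6 after knockdown. Its change of 0.27 ± 0.12 did not pass (adjusted p 0.216), but passed after quantile normalization over all arrays (0.42, adjusted p 0.0430) or with 1 added before log2 (0.57, adjusted p 0.019).

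Among 20 measured genes of tight junctions and epithelial identity 5 rose and 4 fell. The claudins that passed the test all fell: CLDN2, CLDN3 and CLDN7. CLDN2 read 298 and 672 in control and 124 and 169 after knockdown, and its change of -1.53 became -0.96 without control replicate 2. CLDN3 read 716 and 985 in control and 309.6 and 365 after knockdown, a change of -1.28 ± 0.11 (adjusted p 9.54e-08), and its other probe set changed by -1.41. Keratins went both ways. KRT23 had the largest fall of all, whereas KRT7, a simple-epithelial keratin of pancreatic ducts, read 104 and 80.3 in control and 248.5 and 255 after knockdown, a change of 1.32 ± 0.11 (adjusted p 4.15e-08). A dim KRT7 probe set changed by -0.16, and the average was 0.58. The other rises were in KRT16, the laminin chain LAMB3, the tight junction protein CGN and the adhesion molecule CEACAM1.

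Matrix and mesenchymal genes were the list with the most rises, and also that with the most measured members. Of 34 measured members 10 rose and 1 fell, with a median change of 0.23. Calls in either direction made up 9.09% of all genes and 23.7% of those at an intensity of at least 32. A larger share rose of the cell cycle brakes and p53 target genes described below, 5 of 14. THBS1 and MMP19 rose most. COL5A2, a chain of type V collagen, read 77.4 and 63.6 in control and 136 and 119.5 after knockdown, a change of 0.74 ± 0.12 (adjusted p 0.000328). The other rises were in CALD1, COL6A1, ITGA5, MMP14, S100A2, ACTA2 and FSCN1. COL13A1, a transmembrane collagen, fell from 283 and 308 to 147 and 173, a change of -0.83 ± 0.08 (adjusted p 2.95e-07). The number that rose was 5 without control replicate 2, 6 without CTNNB1 siRNA replicate 1, and 5 when the 4 siRNA arrays were fitted alone. Mesenchymal markers of the list were not all alike. ACTA2 (0.46 ± 0.12) and CALD1 (0.67 ± 0.19) were among the rises. VIM (0.42 ± 0.24), FN1 (-0.19 ± 0.23) and SNAI1 (-0.16 ± 0.29), picked after their values were seen, did not pass the test. SNAI1 was dim, at means of 14.7 in control and 10.5 after knockdown.

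YAP and TAZ, transcriptional coactivators of the Hippo pathway, had 9 measured targets, of which 2 rose, a share near the 23.7% of brighter genes that were called. AJUBA, a LIM-domain scaffold, read 1895 and 1776 in control and 2392 and 2349 after knockdown, a change of 0.37 ± 0.06 (adjusted p 0.000192), and its 2 other probe sets rose too. TGFB2, a TGF-β ligand, was dimmer, at 33.8 and 26.2 in control and 62.8 and 55.1 after knockdown. Its change of 0.71 ± 0.09 was 0.39 with 64 added and did not pass with the 4 arrays alone (adjusted p 0.0805). TGFB2 was also the only call among 15 measured genes of the TGF-β and BMP response.

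Genes of oxidative stress and xenobiotic metabolism split. Of 20 measured, 5 rose and 4 fell. HMOX1 and GCLM, the modifier subunit of the enzyme that starts glutathione synthesis, are both known targets of the factor NRF2. GCLM read 31.3 and 39.4 in control and 67.2 and 77.6 after knockdown, a change of 0.79 ± 0.11 (adjusted p 4.01e-05) that was 0.46 with 64 added. Other genes known to respond to NRF2 went down, as GPX2 did. SRXN1, sulfiredoxin, was among the falls with GPX8 and CYP1B1. CYP1A1, the classical target of the aryl hydrocarbon receptor, read 379 and 424 in control and 563 and 713 after knockdown, a change of 0.64 ± 0.10 (adjusted p 0.000147). ALDH1A1 and the exporter ABCC3 made up the rises.

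Of 22 measured genes of fatty acid metabolism 8 fell and 0 rose (limma; at an unadjusted p under 0.05 they were 8 and 1). PDK4, a kinase that shuts off pyruvate dehydrogenase, read 782 and 773 in control and 469 and 425 after knockdown, a change of -0.78 ± 0.07 (adjusted p 1.52e-07). ACSL4 and ACSL1, which load fatty acids onto coenzyme A, changed by -0.70 ± 0.09 and -0.67 ± 0.11, and the desaturase FADS2 by -0.60 ± 0.13, a call that ended without CTNNB1 siRNA replicate 2 (adjusted p 0.0607). ACSS1, LPIN2, FADS3 and SCD also fell. The number that fell was 5 without control replicate 2, 5 with the 4 arrays alone and 4 with probe sets averaged, where dim probe sets of ACSL4 and PDK4 that did not follow ended both calls. Of 10 measured genes of cholesterol handling 4 fell and 2 rose. STARD4, an intracellular sterol carrier, read 461 on both control arrays and 219 and 166 after knockdown, a change of -1.20 ± 0.11 (adjusted p 2.95e-07). DHCR7, the last enzyme of a branch of cholesterol synthesis, read 1112 and 1164 in control and 682 and 642 after knockdown, a change of -0.77 ± 0.11. The synthesis enzyme SQLE and the feedback regulator INSIG1 completed the falls. The rises were the exporters ABCA1 and ABCG1. ABCG1 read 1281 and 992 in control and 1919 and 1746 after knockdown, a change of 0.69 ± 0.09 (adjusted p 1.09e-05), and 2 of its 3 other probe sets rose.

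Cell cycle genes gave small changes. Of 20 measured genes of DNA replication 5 fell and 0 rose (limma; at an unadjusted p under 0.05 they were 10 and 1). ORC1, a subunit of the origin recognition complex, read 209 and 181.5 in control and 129 and 117 after knockdown, a change of -0.61 ± 0.10 (adjusted p 0.000198). GINS4 (-0.41 ± 0.09), RRM1 (-0.35 ± 0.08) and E2F8 (-0.29 ± 0.07) fell less, as did GINS2. The number of falls was 10 after quantile normalization over all arrays and 2 with the 4 siRNA arrays alone. E2F8 did not pass without control replicate 2 (adjusted p 0.0710) or CTNNB1 siRNA replicate 2 (0.0768), nor RRM1 without control replicate 1 (0.0537). None of 6 measured mitosis genes passed limma's test, and 1 was lower at an unadjusted p under 0.05.

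Cell cycle brakes and p53 target genes had 14 measured members, of which 5 rose and 1 fell. CDKN1A, the gene for p21, read 1139 and 857 in control and 1357 and 1474 after knockdown, a change of 0.51 ± 0.10 (adjusted p 0.0014). CDKN2B, the gene for p15, read 425 and 266 in control and 597 and 514 after knockdown, a change of 0.69 ± 0.13 (adjusted p 0.00119). Control replicate 2 was low for both, and without it the changes were 0.31 and 0.37. A dim second probe set of CDKN2B changed by -0.09, and the average of its probe sets did not pass (0.30, adjusted p 0.235). CDKN1C (0.49 ± 0.12) did not pass without control replicate 2 (adjusted p 0.0776) or either CTNNB1 siRNA array (0.0860 and 0.0560). The stress gene SESN2 and BTG1 were the other rises, though the other SESN2 probe set changed by 0.25 and did not pass. MDM2, the ubiquitin ligase of p53 and itself a p53 target, fell from 60.4 and 68.6 to 23.7 and 26.6, a change of -0.97 ± 0.10 (adjusted p 9.91e-07). Its other probe sets were dim and did not pass, and the average of all did not either (-0.33, adjusted p 0.315).

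Inflammatory genes rose in small number: 5 of 20 measured NF-κB targets and cytokines rose and 1 fell, TNFSF15. IL32, a proinflammatory cytokine, read 346 and 274 in control and 592 and 632 after knockdown, a change of 0.95 ± 0.16 (adjusted p 0.000355). The chemokine CCL20 changed by 0.42 ± 0.07 (adjusted p 0.000198). IL1A, interleukin 1 alpha, changed by 0.71 ± 0.16, but not past the test without control replicate 2 (adjusted p 0.155) or CTNNB1 siRNA replicate 2 (0.0602). The chemokine CXCL2 changed by 0.52 ± 0.15 and was likewise lost without either (0.258 and 0.311). Without control replicate 2, or without CTNNB1 siRNA replicate 2, only 2 of the list rose. TNFSF15 stayed past the test without control replicate 2, but not when any other siRNA array was left out. Of 15 measured interferon response genes 1 rose and 3 fell, together a share near the 23.7% of brighter genes that were called. IRF9, a subunit of the factor that carries the interferon signal, read 299.6 and 262 in control and 434 and 476 after knockdown, a change of 0.67 ± 0.08 (adjusted p 6.8e-06). EPSTI1 fell by 0.93 on the log2 scale, PSMB9, an immunoproteasome subunit, by 0.60, and IFIT1 by 0.37, the last not past the test without control replicate 2 (adjusted p 0.414) or CTNNB1 siRNA replicate 1 (0.488). In the fit without control replicate 1, 6 of these genes rose. With its probe sets averaged EPSTI1 did not pass (-0.47, adjusted p 0.0735). Of 6 measured genes of RNA interference and double-stranded RNA sensing 1 passed the test, AGO4, which rose.

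Of 16 measured immediate early and MAP kinase feedback genes 4 rose and 2 fell. The rises were DUSP1 and the small MAF factor MAFF (0.34 ± 0.08), with HBEGF and FOSL2. Without control replicate 2 only 1 of the list rose, and MAFF had an adjusted p of 0.118. Without CTNNB1 siRNA replicate 2 none rose, with MAFF at 0.0576. The falls were in LRIG1 and SPRY1, inhibitors of receptor tyrosine kinase signalling. LRIG1 read 798 and 1221 in control and 389 and 415 after knockdown, a change of -1.27 ± 0.17 (adjusted p 2.78e-05), and SPRY1 went from 220.2 and 260.02 to 122 and 131, a change of -0.84 ± 0.12 (adjusted p 3.59e-05).

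The unfolded protein and integrated stress response had 27 measured genes, of which 3 rose and 3 fell, with 5 rises without control replicate 1. ERN1, the sensor IRE1, read 311 and 278 in control and 479.6 and 451 after knockdown, a change of 0.63 ± 0.08 (adjusted p 5.79e-06), and DNAJB9 and HERPUD1, which belong to the endoplasmic reticulum arm, rose with it. The falls were in enzymes of amino acid synthesis. ASNS, asparagine synthetase, read 1471 and 1923 in control and 1095 and 1241 after knockdown, a change of -0.52 ± 0.09 (-0.33 without control replicate 2). CTH, of cysteine synthesis, changed by -0.57 ± 0.08, while its other probe set changed by -0.31 and did not pass. PSAT1, of serine synthesis, changed by -0.77 ± 0.09, but its second probe set rose by 0.35 (adjusted p 0.0364), so PSAT1 has no settled direction.

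Of 14 measured hypoxia and glycolysis genes 3 rose and 2 fell, beside calls in 9.09% of all genes and 23.7% of brighter ones. VEGFA, the angiogenic growth factor, read 1175 and 1203 in control and 755 and 688 after knockdown, a change of -0.71 ± 0.07 (adjusted p 8.54e-07), while its dimmer probe sets changed by -0.26 and -0.32 and did not pass. P4HA2, a collagen prolyl hydroxylase, changed by 0.46 ± 0.07. CA12, a carbonic anhydrase (0.55 ± 0.13), did not pass without control replicate 2 (adjusted p 0.0669) or CTNNB1 siRNA replicate 1 (0.0740), nor the glycolytic enzyme TPI1 (-0.42 ± 0.10) without CTNNB1 siRNA replicate 2 (0.0820). NDRG1 rose as well.

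Of 25 measured mucin and gastrointestinal lineage genes 2 fell and 1 rose. FOXA1, a pioneer factor of endoderm, read 354 and 471 in control and 239.6 and 249 after knockdown, a change of -0.71 ± 0.11 (adjusted p 0.000226). APOBEC1, the enzyme that edits apolipoprotein B mRNA, changed by -0.59 ± 0.10 (adjusted p 0.000261). The nuclear receptor NR0B2 changed by 0.67 ± 0.20, and not past the test without control replicate 2 (adjusted p 0.583) or CTNNB1 siRNA replicate 1 (0.395). In the fit without control replicate 1, 5 of the list fell and 4 rose. Secreted proteases and inhibitors had 12 measured members. KLK7, a kallikrein protease, read 723 and 1040.1 in control and 415 and 418 after knockdown, a change of -1.03 ± 0.12 (adjusted p 3.08e-06), with its other probe set at -1.05. CLU, the chaperone clusterin, fell from 1322 and 1792 to 769 and 774, a change of -0.98 ± 0.11, and PRSS23, a serine protease, changed by 0.65 ± 0.10.

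In the lysosome and autophagy list 2 of 11 measured genes passed. ULK1, the kinase that starts autophagy, changed by 0.54 ± 0.11 (adjusted p 0.0021), and MAP1LC3B by -0.22 ± 0.06 (adjusted p 0.0309). MAP1LC3B did not pass without control replicate 1 or either CTNNB1 siRNA array (adjusted p 0.0842 to 0.151). The apoptosis list had 1 fall among 9 measured, DFFB, the histone list 1 rise among 6, H2BC5, and the Notch list no call among 8, with 1 gene higher and 1 lower at an unadjusted p under 0.05.

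**Figure D4:**
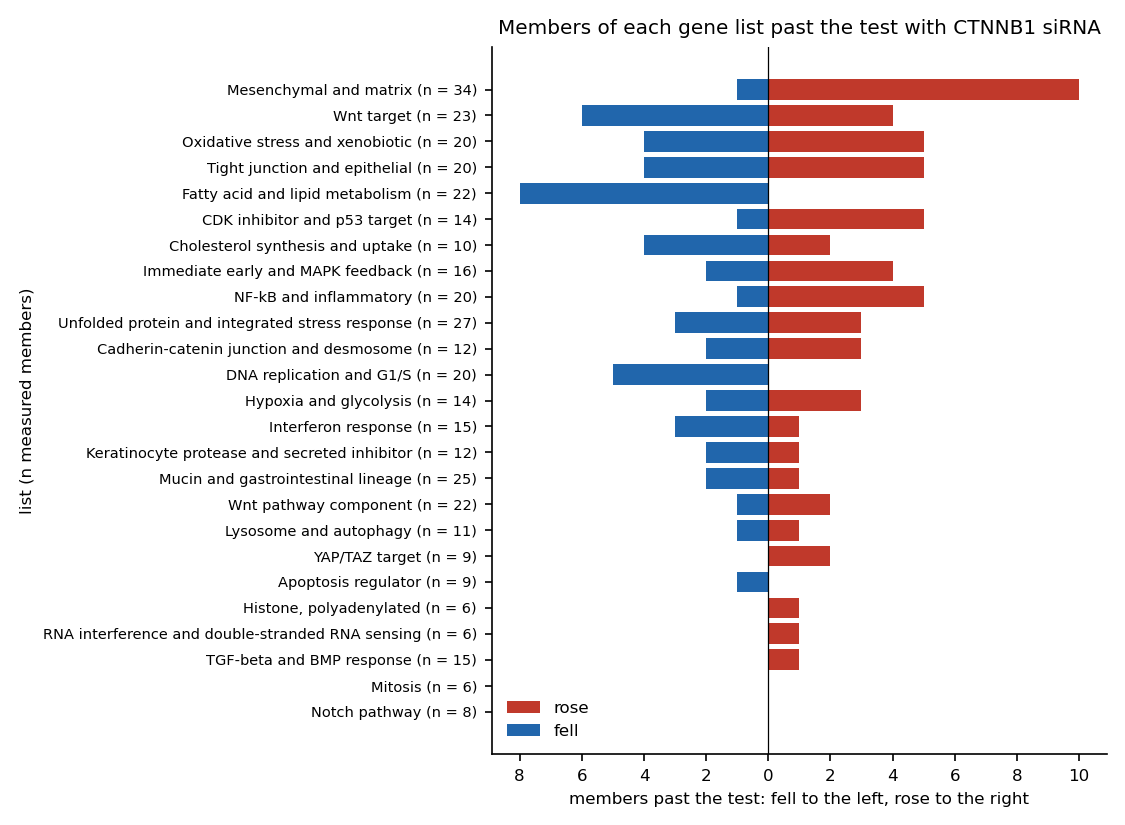
Number of measured members of each gene list that rose (red, right) or fell (blue, left) with CTNNB1 siRNA, with the number measured beside each name; some genes are on more than 1 list. The matrix list has the most rises, 10 of 34, and also the most measured members. The fatty acid and DNA replication lists have falls only. Of all genes 5.03% rose and 4.06% fell, and calls in either direction made up 23.7% of genes at an intensity of at least 32.

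These list counts are to be read against the share of bright genes that passed the test, 23.7%, as well as that of all genes. Markers of other cell types were counted next. Lists for leukocyte, endothelial, fibroblast, islet and acinar cells held 70 genes. Of these 17 were measured, 0 passed limma's test, 1 was lower at an unadjusted p under 0.05, and 15 were under an intensity of 32 in both groups. The fibroblast markers COL1A1, COL3A1, DCN, DPT, MMP2, PDPN and THY1 summed to 191 and 140 in control and 184 and 175 after knockdown. Of 20 markers of a ductal carcinoma line 7 were measured, and S100P, MUC1, MUC4, KRT7 and CLDN18 were above an intensity of 32 in at least 1 group. KRT19 and CDH1 were not, so few genes of this marker list speak for the line's epithelial identity on the siRNA arrays. Other epithelial genes outside it were bright there, among them KRT23, CLDN3 and DSG3, whose readings are given above. Some, such as CLDN10 and MAL2, were dim. CDH1 was not dim throughout the series: it read 273, 309 and 336 on the DMSO arrays at 24 h. RNA was read in bulk, so a smaller share of cells with a gene and less of its RNA per cell cannot be told apart.

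The knockdown was then set against ICG-001. The comparisons share no array, but differ in agent, time, transfection and control, so their differences cannot be assigned to the agent. The change with CTNNB1 siRNA differed from that with ICG-001 at 24 h in 739 genes (14.1%), 269 where the knockdown change was the higher (5.12%) and 470 where it was the lower (8.95%). At 6 h it differed in 529 genes (10.1%), 204 higher (3.89%) and 325 lower (6.19%). The split depends on scaling. The arrays also differ in overall brightness: their mean intensity lay between 105.5 and 109.6 in the siRNA experiment, between 131.7 and 136.8 under DMSO and between 163.7 and 178.9 under ICG-001. After quantile normalization over all arrays it was 459 higher and 371 lower at 24 h, and 368 higher and 271 lower at 6 h.

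Of the 264 genes that rose with knockdown, 145 also rose with ICG-001 at 24 h, 34 fell and 85 did not pass. Of the 213 that fell, 95 also fell, 68 rose and 50 did not pass. ICG-001 at 24 h changed 1125 genes (21.4%), with rises in 14.1% and falls in 7.33% of all genes. The genes called in the same direction in both were 50.3% of the knockdown calls and 21.3% of the ICG-001 calls. At 6 h, when ICG-001 changed 650 genes (12.4%), they were 34.2% and 25.1%. Of the 12 largest knockdown falls 10 also fell with ICG-001 at 24 h and 0 rose, whereas of the 12 largest rises 3 rose and 4 fell.

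MMP7 showed the closest match among the large falls. It read 1743, 1662 and 1605 with DMSO and 419, 396 and 382 with ICG-001 at 24 h, a change of -2.02 ± 0.12 against -2.07 ± 0.14 with knockdown. The difference was -0.05 ± 0.19 (adjusted p 0.913). At 6 h MMP7 had not passed the test (-0.28 ± 0.12), and there the difference was -1.80 ± 0.19. MYB (-2.49 ± 0.17 with ICG-001 at 24 h), LGR5 (-1.67 ± 0.12), TCIM (1.41 ± 0.15) and ABCA1 (1.52 ± 0.13) also changed in the knockdown's direction, with differences of 0.49 ± 0.28, 0.26 ± 0.19, -0.07 ± 0.23 and 0.03 ± 0.20, none past the test. RNF43 and BMP4 fell with both, but more with knockdown, by differences of -0.78 ± 0.15 and -0.95 ± 0.13.

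Other large changes were not matched by the drug. HMOX1 read 411, 397 and 439 with DMSO and 476, 483 and 514 with ICG-001 at 24 h, a change of 0.23 ± 0.07 that differed from the knockdown's by 1.99 ± 0.11 (adjusted p 3.63e-11). KRT23 fell by 0.74 on the log2 scale with ICG-001, a difference of -1.59 ± 0.12. ARHGDIB (-1.13 ± 0.12 with ICG-001 at 24 h), KIT (-0.57 ± 0.15) and KRT7 (-1.01 ± 0.09) moved against the knockdown's direction. KRT7 also stood at another level in the experiments, at 1251 to 1590.4 on the DMSO arrays at 24 h and 80.3 to 104 on the control siRNA arrays. The gap was wider for CDH1, at 273 to 336 and 8.68 to 12.4, and for CDH3, at 693 to 764 and 33.8. There is no test of these gaps here. MMP7 was less far apart, at 1605 to 1743 with DMSO and 2275 to 3669.7 with control siRNA.

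Among genes called both in the knockdown and in its difference from ICG-001, the widest gaps were in genes that ICG-001 raised steeply. These changed less with knockdown, mostly downward. Genes without a knockdown call were not ranked. S100P, a calcium-binding protein of pancreatic carcinoma, read 1169 and 1268 with control siRNA and 901 and 907 with CTNNB1 siRNA, a change of -0.42 ± 0.07. With ICG-001 it changed by 3.20 ± 0.05 at 24 h, a difference of -3.62 ± 0.09 (adjusted p 3.01e-16). ASNS changed by 3.00 ± 0.07 with ICG-001, a difference of -3.52 ± 0.11, and DHRS2, a short-chain dehydrogenase, by 2.41 ± 0.13, a difference of -3.47 ± 0.20. DHRS2 was dim in the siRNA arrays, at 37.2 and 41.1 in control and 8.69 and 12.3 after knockdown. Its knockdown change of -1.06 ± 0.15 was -1.82 with 1 added and -0.47 with 64. The other DHRS2 probe set, with a control mean of 41.7, changed by -0.44 and did not pass. At 6 h CTH changed by 2.49 ± 0.07 with ICG-001, against -0.57 with knockdown. SESN2 rose in both, by 0.48 ± 0.08 with knockdown and 3.56 ± 0.06 with ICG-001 at 6 h, a difference of -3.08 ± 0.10.

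**Figure D5:**
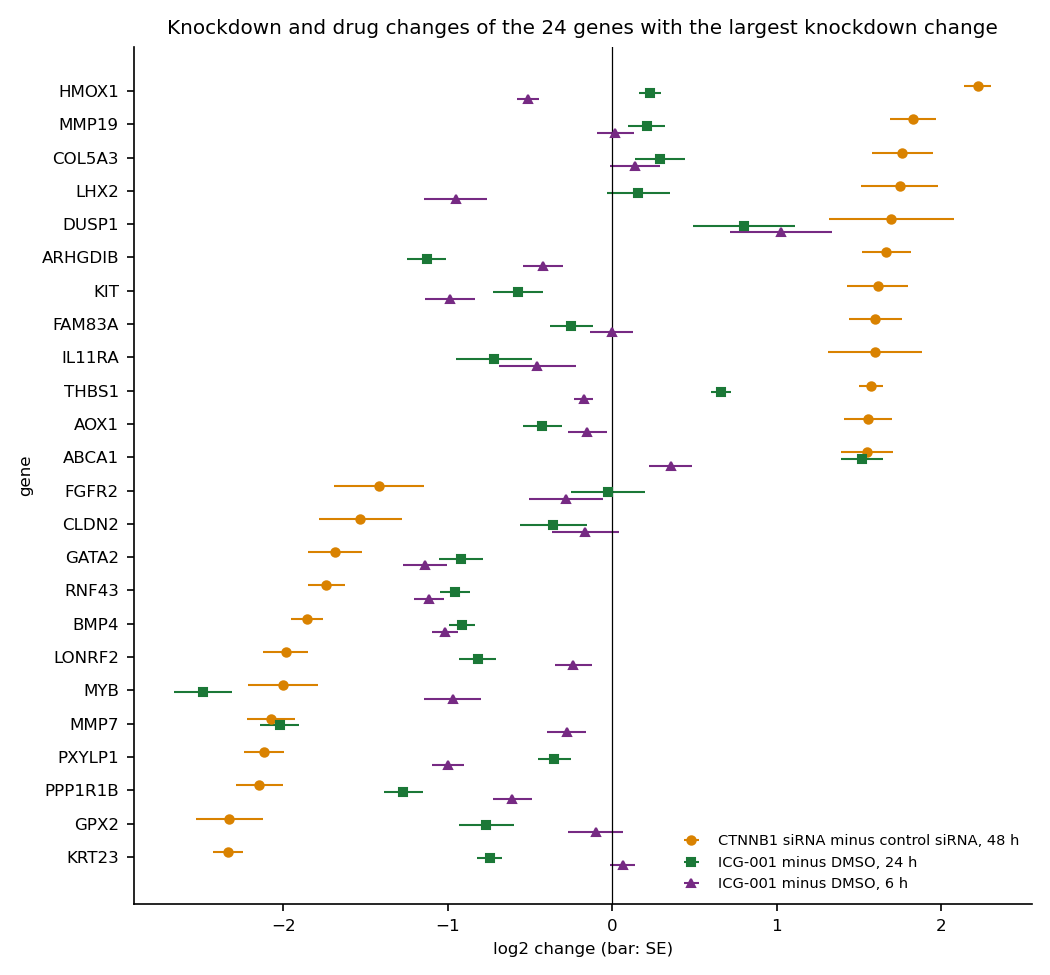
Log2 change (horizontal axis, bar: SE) of the 24 genes with the largest knockdown change, with CTNNB1 siRNA at 48 h (orange circles), ICG-001 at 24 h (green squares) and ICG-001 at 6 h (purple triangles), each against its own control. Most falls lie left of zero at 24 h as well, with MMP7 at -2.07 and -2.02, while among the rises ABCA1 is matched and HMOX1, ARHGDIB and KIT are not.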

How the data were processed

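The deposited values are linear intensities, 1 per probe set and array; the labels name total RNA, biotin label and Affymetrix arrays. How probes were summarised and arrays scaled is not given in the sources used here. The value was exactly 1 in 1682 of 152864 cells. Probe sets were named from GEO's platform annotation, with 6432 of 6442 single symbols matched to current ones by gene identifier; 252 probe sets with several symbols and 2860 with none were left out. Each gene was read by its probe set of highest mean on the log2 scale, and 936 genes had more than 1.

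The authors' scaling was kept, since the medians of the siRNA arrays differed by less than 0.5 (log2). The number 16 was added before log2. limma 3.58.1 (R 4.3.3) was fitted to all 16 arrays in 6 groups with an intensity trend, without a replicate block. This left 10 residual and 8.62 prior degrees of freedom. The fit was also run on simulated data in which each gene had the same spread in every group. Such data cannot test whether drug and siRNA arrays share a spread. Tests were two-sided, with Benjamini-Hochberg adjustment over 5250 genes. With 2 arrays per group, their number limits precision.

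The genes named are the 12 largest rises and falls among non-overlapping called genes with a mean intensity of at least 32 in the higher group. Added to these were up to 4 called members of each list with 2 or more calls, and a set of Wnt genes. All calls of the lists of Wnt targets, Wnt components and cadherin junctions were named too. So were the 4 largest differences from ICG-001 at each time, among genes called both in the knockdown and in that difference. Other members of a list and MET, VIM, FN1 and SNAI1 were named after their values were seen. The comparison, the lists and these rules were chosen with earlier results of these data known. Lists are described by counts and medians, with no set test. Alternatives varied scaling, the number added, probe sets, the arrays fitted and each siRNA array left out.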

Additional observations from a re-analysis of the deposited data

How the results depend on the processing

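Fitting the 4 siRNA arrays alone, with 2 residual degrees of freedom, reduced the calls from 477 to 304 (167 rose, 137 fell), of which 295 were among the 477. Every other setting kept the number of genes that rose and that fell within 1.5 times. Of the 477, 345 were still called without the intensity trend, and 411 to 466 under the other scalings, the other numbers added and the mean of all probe sets. With every probe set tested 474 stayed, but each gene was still judged there by the same probe set. That setting therefore could not test the choice of probe set. Where single siRNA arrays were left out, 354 to 528 genes passed. No change of a named gene reversed under any setting run. However, no setting read a gene by another single probe set, and the second probe set of PSAT1 rose by 0.35 while the kept one fell. Of 95 named genes, 81 to 89 kept their side of the threshold without 1 siRNA array, 85 with the 4 arrays alone, 87 after quantile normalization over 16 arrays and 84 without the trend. For the differences from ICG-001 this normalization raised the number of genes with the higher knockdown change from 269 to 459 at 24 h and from 204 to 368 at 6 h, and centring the arrays on their medians gave 345 higher and 337 lower at 24 h. The cause was not tested.

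Same-numbered siRNA arrays did not deviate together over all 5250 genes (correlation 0.013). Of these genes 3379 were under an intensity of 32, and noise in dim genes lowers such a correlation. It therefore cannot decide whether the numbers pair the arrays. With a replicate block 519 genes passed, 295 up and 224 down, 474 of them among the 477, and DSC2 was lost (adjusted p 0.0585). Signal over background is a limit: 0.977% of those under an intensity of 32 passed, against 23.7% of the rest.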
